A study of Mus musculus with 8 samples.

Results

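OCT4 regions near the starts of protein-coding genes were described in mouse embryonic stem cells, across 3 ways of preparing the same kind of sample for sequencing. A region was counted as near a start when its summit, the position of strongest signal, lay within 1000 bp of the 5′ end of a RefSeq protein-coding gene of GRCm38.p6, with the strand taken into account. On chromosomes 1 to 19 and X, 333 of 19493 distinct regions met this rule, which is 1.71% of them. They carried 270 of the 21317 protein-coding genes whose strand was known.

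The regions came from CUT&RUN, in which an antibody brings a nuclease to a bound protein and the DNA released by the cut is sequenced. All libraries were made from male E14 embryonic stem cells, labelled as strain C57BL/6J, grown without feeder cells in N2B27 medium with the 2i inhibitors and given no treatment. OCT4 was profiled in 2 conventional libraries, which carry no information on cytosine modification, in 2 bisulfite libraries, for which only methylated reads were kept, and in 2 hmC-Seal libraries, for which DNA fragments with 5-hydroxymethylcytosine were tagged and pulled down. Control libraries with IgG were made for the conventional and the bisulfite preparation. The conventional and bisulfite libraries are described as pools, and nothing in the sources says that replicates came from separate cultures, so the p-values measure only the spread between these libraries, which may be technical. Each library averages over many cells, so that the share of cells with OCT4 at a site and the strength of binding in each cell cannot be told apart.

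OCT4, the product of Pou5f1, is a POU-domain transcription factor that keeps embryonic stem cells pluripotent, often together with SOX2. It recognizes the octamer, a short element of gene promoters and enhancers, and much of its binding is known from enhancers rather than from gene starts. Cytosines of CG dinucleotides are mostly methylated in mammalian genomes except in CG-rich promoters, and TET enzymes oxidize 5-methylcytosine to 5-hydroxymethylcytosine.

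The octamer was searched as ATGCAAAT on both strands. Below are 81 bases centred on the summit, from the RefSeq promoter windows of GRCm38.p6, each written 5′ to 3′ on the + strand. The first 4 are promoters called in 2 or more libraries that hold an octamer, Gadd45a, Zfp42 and Nanog belong to gene lists described further on, and Tut1 is a promoter called in 3 libraries without one. Capitals mark the octamer, and in Nanog a SOX element (CATTGT) followed by 1 base and the first 7 letters of the octamer (ATGCAAA), here read from the other strand.
H2ac6 and H2bc4 (chr13:23684050-23684130): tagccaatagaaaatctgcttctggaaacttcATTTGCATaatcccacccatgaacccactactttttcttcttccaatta
Cables2 (chr2:180273591-180273671): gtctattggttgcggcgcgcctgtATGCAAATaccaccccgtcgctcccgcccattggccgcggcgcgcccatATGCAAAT
Pipox (chr11:77894026-77894106): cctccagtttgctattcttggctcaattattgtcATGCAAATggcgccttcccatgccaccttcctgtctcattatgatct
E2f3 (chr13:29986206-29986286): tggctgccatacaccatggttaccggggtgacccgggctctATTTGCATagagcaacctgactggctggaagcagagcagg
Gadd45a (chr6:67037434-67037514): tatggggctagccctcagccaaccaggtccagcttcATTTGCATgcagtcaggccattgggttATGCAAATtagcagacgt
Zfp42 (chr8:43307139-43307219): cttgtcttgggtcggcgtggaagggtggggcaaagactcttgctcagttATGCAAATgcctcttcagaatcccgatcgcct
Nanog (chr6:122707389-122707469): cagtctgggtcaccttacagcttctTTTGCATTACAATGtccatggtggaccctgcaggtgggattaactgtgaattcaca
Tut1 (chr19:8953623-8953703): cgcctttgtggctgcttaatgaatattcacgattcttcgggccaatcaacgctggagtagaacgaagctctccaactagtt

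The octamer stood close to the summit of hmC-Seal replicate 1, on which each of these sequences is centred. It covered positions −8 to −1 from the summit between H2ac6 and H2bc4, −6 to 1 at Pipox, 1 to 8 at E2f3 and −4 to 3 at Gadd45a. Cables2 had an octamer at −16 to −9 and another at 33 to 40, and a further copy elsewhere in its promoter window brought the number to 3. At Zfp42 the octamer covered 9 to 16. In hmC-Seal replicate 2, the other library with a region at E2f3, the centre of the nearest octamer lay 51 bp from the summit. In Nanog, the paired element covered −15 to −2. This element occurred in 2 of 32619 promoter windows, both of them overlapping windows of Nanog. The sequence between H2ac6 and H2bc4 held 0 CG dinucleotides and that of Cables2 held 10.

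The share of regions near a start was higher in conventional libraries than in bisulfite libraries, and it differed between the hmC-Seal replicates. In conventional replicates 1 and 2, 5 of 186 and 7 of 200 regions were near a start, which is 2.69% (95% Wilson interval 1.15% to 6.14%) and 3.50% (1.71% to 7.05%). In bisulfite replicates 1 and 2, it was 30 of 2682 and 31 of 1947 regions, or 1.12% (0.785% to 1.59%) and 1.59% (1.12% to 2.25%). In hmC-Seal replicates 1 and 2, it was 86 of 3499 and 176 of 11061 regions, or 2.46% (1.99% to 3.03%) and 1.59% (1.37% to 1.84%). These intervals cover counting error only, since regions of a library are not independent.

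Placed uniformly on the same chromosomes, regions would fall near a start in 1.53% to 1.58% of cases, since 1.54% of all positions lie within 1000 bp of one. The observed share was 1.76 and 2.25 times the uniform share in conventional replicates 1 and 2, 0.727 and 1.02 times in bisulfite replicates, and 1.56 and 1.03 times in hmC-Seal replicates. Among the 6 libraries, hmC-Seal replicate 1 and conventional replicate 2 had intervals that lay above their uniform share. The mean difference from the uniform share was 0.607 percentage points ± 0.878 (SD, n = 6 libraries), above 0 in 5 of 6 libraries. It did not pass the two-sided exact permutation test over signs (p = 0.156, where 0.031 is the lowest value within reach of 6 libraries).

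**Figure D1:**
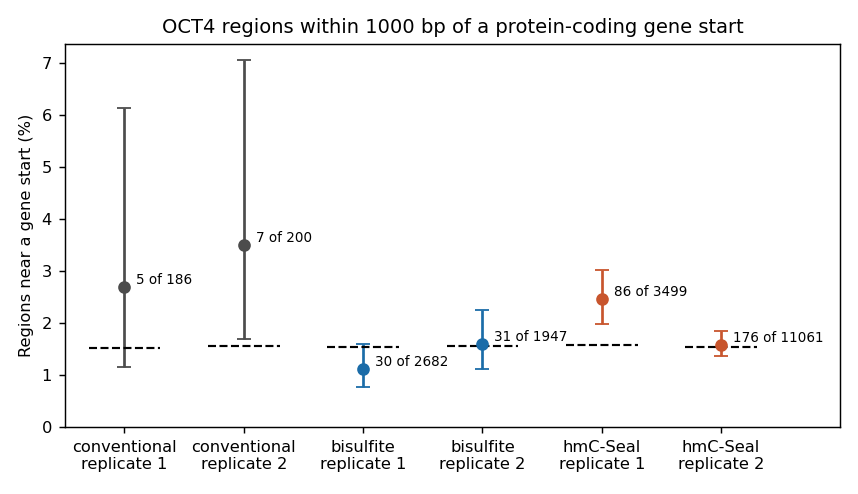
Percent of the regions of each library (y axis) that lie within 1000 bp of a protein-coding gene start, with 95% Wilson intervals, and the percent given by uniform placement on the same chromosomes (dashed lines). The 2 conventional libraries sit at 2.69% and 3.50%, and hmC-Seal replicate 1, at 2.46%, lies above hmC-Seal replicate 2, at 1.59%.

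Between preparations, the mean share was 3.09% ± 0.574 (SD, n = 2 libraries) in conventional, 1.36% ± 0.335 (SD, n = 2) in bisulfite and 2.02% ± 0.613 (SD, n = 2) in hmC-Seal libraries. Both bisulfite libraries lay below both conventional libraries, with a difference of −1.74 percentage points (two-sided exact permutation test, p = 0.33, the lowest value within reach of 2 libraries against 2). Both hmC-Seal libraries also lay below both conventional libraries, with a difference of −1.07 percentage points (the same exact permutation test, p = 0.33), which shrank to −0.081 with a window of 500 bp. The hmC-Seal libraries exceeded the bisulfite libraries by 0.669 percentage points, with overlapping values (exact permutation test, p = 0.667). After Benjamini-Hochberg adjustment over the 6 exact permutation tests of these data, the adjusted p-values ranged from 0.375 to 0.667.

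By gene, the near-start regions of replicates 1 and 2 marked 5 and 8 genes with the conventional preparation, 31 and 33 with bisulfite, and 89 and 186 with hmC-Seal. Across all libraries this came to 270 genes, or 1.27% of the protein-coding genes with a known start. Without hmC-Seal replicate 2 it came to 106 genes. All 9 genes of the conventional libraries also had a near-start region in bisulfite and hmC-Seal libraries. Of the others, 21 genes were shared by bisulfite and hmC-Seal libraries, 14 were marked in bisulfite libraries alone and 226 in hmC-Seal libraries alone. These counts are not adjusted for the length of the lists, which ran from 186 to 11061 regions. They do not show binding particular to a preparation. Among groups of overlapping regions, 14.8% of all 15657 held 2 or more libraries, and 14.3% of the 259 with a near-start region did.

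Replicates shared 4 genes in the conventional preparation, namely Cables2, Crlf2, Gtpbp1 and Lrpap1, which is 80% of the genes of replicate 1 and 50% of those of replicate 2. They shared 20 genes in the bisulfite preparation (64.5% and 60.6% of each list) and 19 in the hmC-Seal preparation (21.3% and 10.2%). Uniform placement would give 3.00 and 3.30 genes in the conventional libraries, 43.5 and 31.9 in the bisulfite libraries and 58.3 and 180.1 in the hmC-Seal libraries. It would give 4.87e-04, 0.0658 and 0.496 genes shared by the replicates of the 3 preparations, in the same order. The number of genes marked in hmC-Seal replicate 2 was thus close to its uniform number, at 186 against 180.1, while the number it shared with replicate 1 was 19 against 0.496. Such sharing was not particular to gene starts in this preparation. Of all regions of hmC-Seal replicates 1 and 2, 29.7% and 9.39% overlapped the other replicate, against 19.8% and 9.66% of near-start regions. The other preparations are compared in the same way further on. Among regions of at least 10 fragments, the hmC-Seal replicates shared 5 genes. Of the genes of hmC-Seal replicate 2, 88.2% were marked in no other library, against 66.3% in hmC-Seal replicate 1, 18.2% and 12.9% in bisulfite replicates 2 and 1, and 0% in both conventional libraries. These shares are not adjusted for list length, and those over all regions are not given here.

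Marks were shared across preparations as well as within them. Bisulfite replicates 1 and 2 each shared 21 genes with hmC-Seal replicate 1, which is 67.7% and 63.6% of their genes and 23.6% of those of hmC-Seal replicate 1. They each shared 15 genes with hmC-Seal replicate 2. The same hmC-Seal replicate 1 shared 19 genes with its own replicate. The matching shares of all regions across preparations are not given here.

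Near-start regions were called in all 6 libraries at 3 genes, in 5 libraries at 5 genes and in 4 libraries at 3 genes. The fold enrichments below are the ratios to the local IgG background that the authors' peak caller gave at the summit. Which of the IgG libraries served as control for the hmC-Seal lists is not given in the sources used here, so a matched background cannot be assumed for them. No list was scaled to match another, so values are compared within a library only.

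Crlf2, which encodes a subunit of the receptor for thymic stromal lymphopoietin, had the region of highest −log10 q near any start in every library. In replicates 1 and 2, its fold enrichment was 27.6 and 23.3 with the conventional preparation, 34.6 and 38.6 with bisulfite, and 59.5 and 19.9 with hmC-Seal. The region (chr5:109557711-109558744, GRCm38) had its summits at 627 to 644 bp after the gene's 5′ end. Among all regions of the chromosomes it ranked first in conventional replicate 1, bisulfite replicate 2 and hmC-Seal replicate 1, and 77th in hmC-Seal replicate 2. It rested on an estimated 115 fragments in replicate 1 of hmC-Seal, against 22 in replicate 2.

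Gtpbp1, which encodes a GTP-binding protein, had fold enrichments of 13.2 and 9.40 with the conventional preparation, 20.4 and 10.5 with bisulfite and 15.9 and 7.87 with hmC-Seal. Its summits (chr15:79690568-79690847) lay 712 to 781 bp after the 5′ end of the gene, but at −183 to −114 from the start that the RefSeq promoter table gives for it. Lrpap1, a chaperone of receptors of the LDL receptor family, had 9.89 and 7.94 with the conventional preparation, 9.58 and 10.6 with bisulfite and 13.9 and 7.08 with hmC-Seal. Its summits (chr5:35104805-35105013) lay 766 to 850 bp into the gene. The genes of all 6 libraries thus had their summits after, not before, the 5′ end that the rule used.

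The genes of 5 libraries had their summits before the 5′ end. Etv5, an ETS-family transcription factor, was called in every library but conventional replicate 1, with a fold enrichment of 21.6 in conventional replicate 2, 14.8 and 18.5 with bisulfite and 34.4 and 12.1 with hmC-Seal. Its summits in the 5 libraries (chr16:22439738-22439956) fell within 8 bp of each other, at −291 to −283. The divergent histone genes H2ac6 and H2bc4, for core histones H2A and H2B, share a region (chr13:23684026-23684172) that was called in the same libraries as Etv5, with 14.4 in conventional replicate 2, 11.9 and 11.95 with bisulfite and 31.4 and 10.4 with hmC-Seal. Octamers are a known element of H2B promoters, and the one printed above for this pair had its centre at −8 to 0 from the summits of the 5 libraries.

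Cables2, a relative of the kinase adaptor gene Cables1, was missing from hmC-Seal replicate 2 only. Its fold enrichment was 11.02 and 15.1 in conventional replicates, 8.61 and 7.97 in bisulfite replicates and 15.5 in hmC-Seal replicate 1, with summits at −153 to −141 (chr2:180273518-180273748). Tmem259, which encodes a membrane protein of the endoplasmic reticulum, had 5.96 in conventional replicate 2, 9.11 and 7.16 with bisulfite and 13.9 and 8.65 with hmC-Seal (chr10:79984895-79985158, summits at −725 to −662). The genes of 4 libraries, Tnks1bp1, Cyb5r1 and Rras, were called in both bisulfite and both hmC-Seal libraries and in neither conventional library. Tnks1bp1, which encodes a tankyrase-binding protein, had 8.61 and 8.68 with bisulfite and 21.9 and 5.51 with hmC-Seal. Cyb5r1, a cytochrome b5 reductase, had 12.9 and 14.6 with bisulfite and 12.4 and 6.92 with hmC-Seal. Rras, a small GTPase related to Ras, had 6.68 and 9.75 with bisulfite and 13.9 and 5.51 with hmC-Seal, and its summits were spread over 157 bp.

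**Figure D2:**
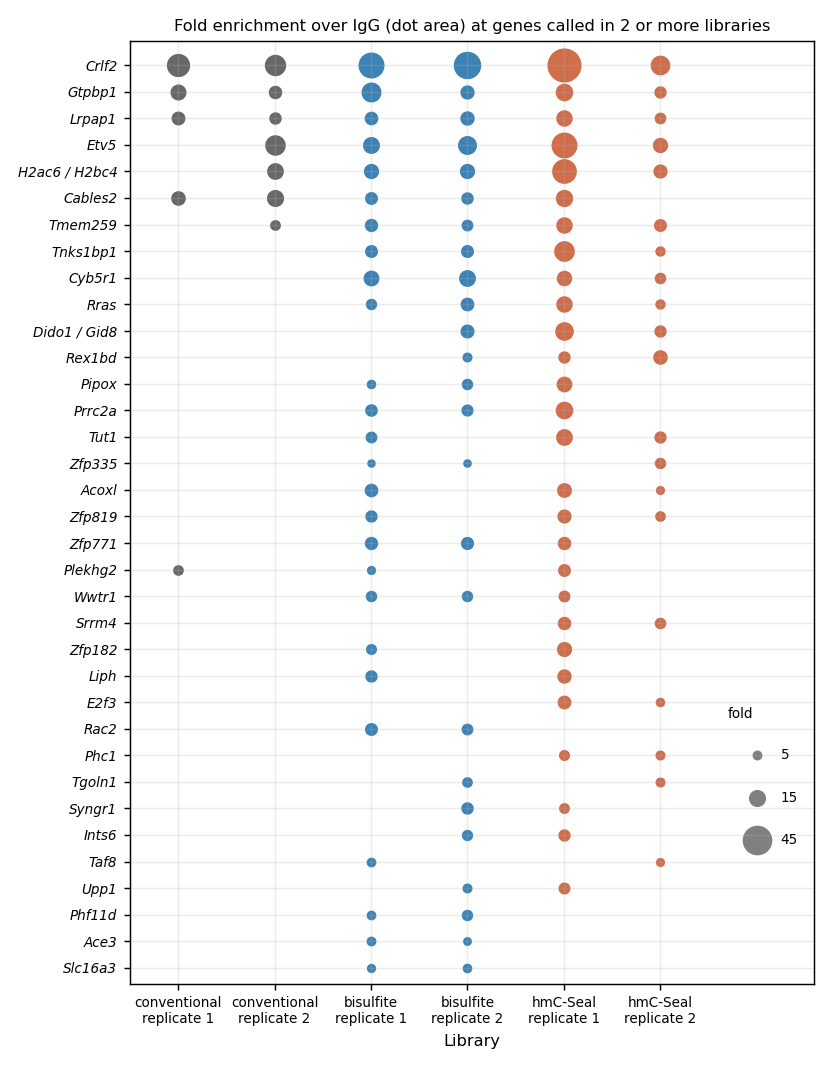
Fold enrichment over IgG, as dot area, at the 37 genes called near their start in 2 or more libraries (rows; gene pairs with a shared region share a row) in each of the 6 libraries (columns). An empty place means that no region was called. Crlf2, Gtpbp1 and Lrpap1 have a dot in every column, and Crlf2 has the largest dot of each column, up to 59.5 in hmC-Seal replicate 1.

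Among regulators of transcription and RNA called in 3 or fewer libraries, Dido1, a PHD-finger chromatin protein, shares its region with the divergent gene Gid8, a subunit of a ubiquitin ligase. The fold enrichment there was 10.1 in bisulfite replicate 2 and 17.9 and 7.87 in hmC-Seal replicates. The region of Tut1, a terminal uridylyltransferase, had 7.22 in bisulfite replicate 1 and 14.5 and 7.78 in hmC-Seal replicates. Prrc2a, which encodes an RNA-binding protein, had 8.16 and 7.59 in bisulfite replicates and 16.0 in hmC-Seal replicate 1. Its hmC-Seal replicate 1 list also held a separate region at 276 bp after the 5′ end. From the start in the RefSeq promoter table, the summit of that region lay at −168. Wwtr1, the TAZ coactivator of the Hippo pathway, had 6.75 and 6.72 in bisulfite replicates and 7.29 in hmC-Seal replicate 1. E2f3, a cell-cycle transcription factor, had 9.81 and 4.72 in the hmC-Seal replicates and no region in the other libraries. Srrm4, a splicing regulator of neurons, had 9.34 and 6.92 in the same 2 libraries.

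Among enzymes and signalling proteins, Pipox, a peroxisomal oxidase, had 4.71 and 6.74 in bisulfite replicates and 12.7 in hmC-Seal replicate 1. Acoxl, related to acyl-CoA oxidases, had 9.58 in bisulfite replicate 1 and 11.4 and 4.32 in hmC-Seal replicates. Its summits lay 833 to 851 bp after the 5′ end, but at −14998 to −14980 from the start in the RefSeq promoter table. The summits of Zfp335 and Slc16a3, and that of Zfp771 in bisulfite replicate 1, also lay more than 1000 bp from that table's starts. Rac2 was called in the bisulfite libraries alone, at 8.64 and 7.16. Rex1bd had 5.15 in bisulfite replicate 2 and 7.90 and 10.98 in hmC-Seal replicates.

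Altogether 37 genes were marked in 2 or more libraries, and 29 of them in both replicates of a preparation. Apart from the genes named so far and the zinc finger genes described next, the 29 included Phc1, Phf11d, Ace3 and Slc16a3. Phc1, a Polycomb subunit, was called in both hmC-Seal libraries at 6.27 and 5.19. The near-start regions of Phf11d, Ace3 and Slc16a3 were called in both bisulfite libraries alone. At Phf11d, a region of a further library overlapped them, with its summit more than 1000 bp from a start. Where these 37 genes had a single joined stretch, as 36 did, the summits of different libraries were spread over a median of 12.5 bp, and at 28 genes over at most 30 bp.

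Gene lists chosen for embryonic stem cells gave few members. Of 30 genes of the pluripotency network, 4 (13.3%) had a near-start region, against the 1.27% of all genes, and each was called in hmC-Seal replicate 1 alone, a library that marked 0.418% of all genes. Zfp42, also known as Rex1 and a marker of naive pluripotency, had a fold enrichment of 8.56 on 16 estimated fragments. Nanog, a homeobox factor of the core network, had 5.75 on 10 fragments, with its summit at −60. Rif1, a regulator of replication timing, had 5.19 on 18 fragments, and Stat3, the transcription factor downstream of LIF, had 4.92 on 17. The other 26 genes, Pou5f1, Sox2, Klf4 and Esrrb among them, had no region within 1000 bp of their start in these lists.

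Of 21 genes for writing, reading and erasing cytosine modifications, 1 was marked (4.76%, against the 1.27% of all genes), Gadd45a, whose product has been tied to DNA demethylation. It was called in hmC-Seal replicate 1 at 6.81 on 24 fragments, and its promoter holds the 2 octamers printed above. Gadd45g (hmC-Seal replicate 1, 7.13) and Mbd5 (hmC-Seal replicate 2, 3.46) also had a near-start region but stand outside this list. The counts of chosen lists thus depend on the members chosen. None of the 29 lineage regulators with a known start, the 24 signalling genes or the 39 Hox genes was marked, and the 1.27% of all genes comes to less than 1 gene in a list of any of these lengths. Of 79 histone genes, 5 were marked (6.33%, against the same 1.27%). Beside H2ac6 and H2bc4, these were the divergent pair H2ac12 and H2bc12 at 4.32 and H1f10 at 3.46, all in hmC-Seal replicate 2 alone, on 4 and 3 fragments.

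Of 396 Zfp genes, which encode zinc finger proteins, 9 were marked (2.27%, against 1.27% of all genes), and 4 of these in 2 or more libraries. Zfp335 had 3.68 and 3.81 in bisulfite replicates and 6.72 in hmC-Seal replicate 2. Zfp819 had 7.75 in bisulfite replicate 1 and 10.3 and 5.90 in hmC-Seal replicates. Zfp771 had 9.11 and 8.90 in bisulfite replicates and 9.34 in hmC-Seal replicate 1. Zfp182, on the X chromosome, had 6.28 in bisulfite replicate 1 and 11.9 in hmC-Seal replicate 1.

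Of 101 ribosomal protein genes, 3 were marked (2.97%, against 1.27% of all genes in any library and 0.873% in hmC-Seal replicate 2), Rpl22 at 8.43, Rpl24 at 7.08 and Rpl29 at 4.32, all in hmC-Seal replicate 2 alone. Large receptor families, which are silent in most cells outside the nose, were marked in hmC-Seal replicate 2 alone as well. They held 5 of 1108 olfactory receptor genes (0.451%, below the 0.873% of all genes in that library), among them Olfr1062 at 6.30, Olfr1330 at 4.32, Olfr331 at 3.94 and Olfr303 at 3.46. They also held 4 of 350 vomeronasal receptor genes (1.14%, against the same 0.873%), Vmn2r65 at 6.92, Vmn2r2 at 5.11, Vmn1r235 at 4.27 and Vmn2r27 at 3.35. The fragments behind these receptor regions numbered between 3 and 7.

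The near-start summits lay more often before than after the 5′ end, a feature that the rule did not use. Joined across libraries by overlap with each other, and not with regions farther from a start, the near-start regions formed 259 stretches, and the summit of highest −log10 q was upstream of the nearest start in 176 of them, or 68.0% (95% Wilson interval 62.0% to 73.3%), against 49.2% of positions within 1000 bp of a start. The share was 75.6% (65.5% to 83.4%) in hmC-Seal replicate 1, 62.5% (55.2% to 69.3%) in hmC-Seal replicate 2, and 70% and 74.2% in bisulfite replicates 1 and 2. The conventional libraries had 2 of 5 and 4 of 7 summits upstream. The side depends on the start used. From the starts of the RefSeq promoter table, the summits of Gtpbp1, Acoxl, Zfp771, Srrm4, Liph and Wwtr1 lay before the start, not after it. So did that of the separate Prrc2a region, and no share was calculated from these starts. In hmC-Seal replicate 1, 58.1% (47.6% to 68.0%) of the summits lay within 300 bp of the start, against 30.5% of positions, while in hmC-Seal replicate 2 it was 31.2% (24.9% to 38.4%).

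**Figure D3:**
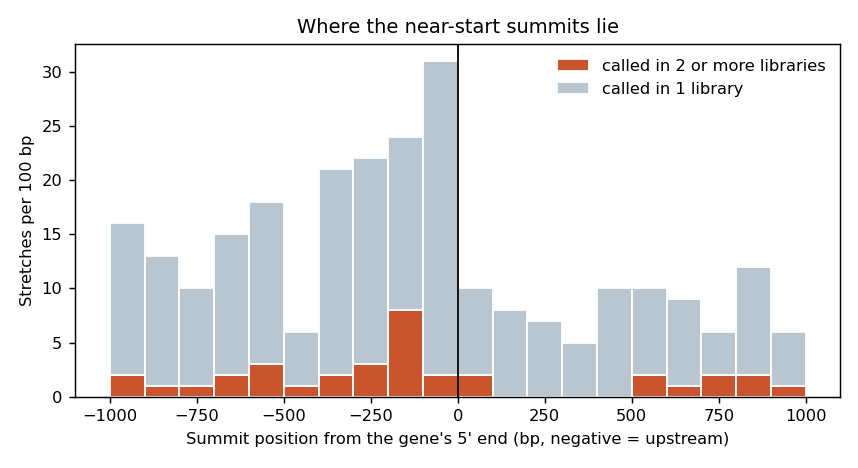
Number of stretches of near-start regions per 100 bp (y axis) by the position of their strongest summit from the gene's 5′ end in bp (x axis), split into stretches with near-start regions of 1 library (grey, n = 224) and of 2 or more (orange, n = 35). In all, 176 of the 259 stretches lie upstream of the start.

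Just inside the limit of 1000 bp were the regions of Selenbp1 at 995 bp (hmC-Seal replicate 2, fold enrichment 3.46), Tmem220 at −995 (bisulfite replicate 1, 7.84) and Phf11d at −994 (bisulfite replicate 1, 4.86). Just outside were those of Tmem220 at −1004 (bisulfite replicate 2, 6.55), Zyg11a at −1005 (hmC-Seal replicate 1, 7.41) and Gm5565 at −1005 (bisulfite replicate 1, 7.69). At Tmem220 the limit thus ran between the summits of the 2 bisulfite replicates.

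The octamer was more frequent in promoter windows that held a near-start summit than in promoter windows at large. The RefSeq windows run from 250 bp before to 50 bp after a start, and 57 of the 259 stretches had a summit inside one. Of these 57, 16 held an octamer in that window, or 28.1% (95% Wilson interval 18.1% to 40.8%), against 1.75% of all 32619 windows. By library, it was 1 of 3 and 2 of 3 windows in conventional replicates 1 and 2, 4 of 9 and 3 of 7 in bisulfite replicates, 14 of 36 (38.9%, 24.8% to 55.1%) in hmC-Seal replicate 1 and 4 of 27 (14.8%, 5.92% to 32.5%) in hmC-Seal replicate 2. Windows of neighbouring starts overlap and share sequence, and these shares were not tested.

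In 14 of the 16 stretches the octamer's centre lay within 40 bp of the summit, and in 11 within 20 bp. Among stretches called in 2 or more libraries, 5 of 12 had an octamer (41.7%, 19.3% to 68.0%), at H2ac6 and H2bc4, Cables2, Pipox, Liph and E2f3. Among those of hmC-Seal replicate 2 alone, 2 of 21 had one (9.52%, 2.65% to 28.9%). With the first 7 letters alone the share was 33.3% of the 57, against 4.66% of all windows. The variant ATGCTAAT was found in 10 of the 57 (17.5%), against 0.926% of all windows, and 3 copies of it stood in the window of Rras. The SOX element CATTGT was in 8 (14.04%), against 12.2%, and the GC box GGGCGG in 38 (66.7%), against 35.9% of all windows and 46.7% of those of protein-coding genes.

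**Figure D4:**
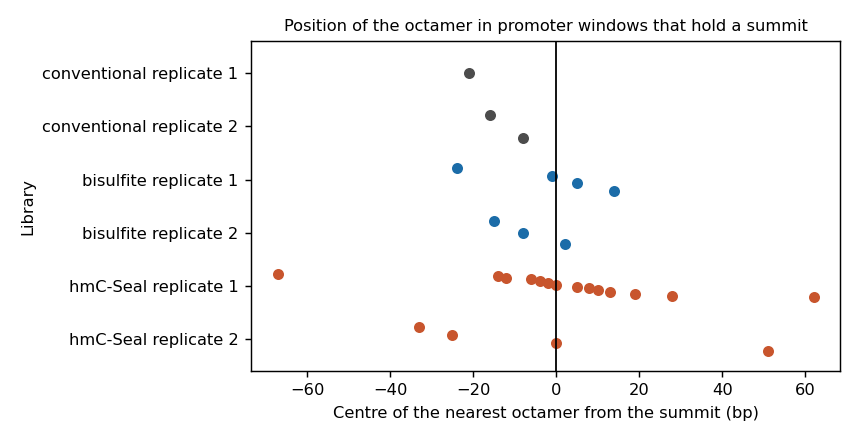
Distance in bp (x axis) from the summit to the centre of the nearest octamer, for every near-start region whose summit lies in a promoter window with an octamer, by library (y axis). Most points of hmC-Seal replicate 1 lie within 20 bp of the summit, and the farthest lies 67 bp before it.

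Promoters of genes marked in 2 or more libraries, and of those of hmC-Seal replicate 1, had a higher median of the CG ratio than promoters at large. A promoter window was found for 81.0% of all genes, where the ratio of observed to expected CG had a median of 0.586 and exceeded 0.6 in 48.9%. Among the 37 genes marked in 2 or more libraries, of which 32 had a window, the median ratio was 0.732 and 68.8% exceeded 0.6. It was 0.687 among the 16 of 20 genes of both bisulfite libraries, 0.754 among the 16 of 19 genes of both hmC-Seal libraries and 0.705 among the 73 of 89 genes of hmC-Seal replicate 1. For conventional replicate 2, bisulfite replicates 1 and 2 and hmC-Seal replicate 2, fewer than 80% of the genes had a window. The median ratios there were 0.873 (6 windows), 0.687 (24), 0.706 (26) and 0.635 (144), in the same order. In hmC-Seal replicate 2, the largest set, 53.5% exceeded 0.6, which is nearer to promoters at large. These differences were not tested, and nothing is said of the marked genes as a whole.

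Agreement of replicates at the level of regions differed by preparation. In the conventional replicates 1 and 2, 4 of 5 (80%, 37.6% to 96.4%) and 4 of 7 (57.1%, 25.05% to 84.2%) near-start regions overlapped the other replicate by at least 1 bp, where 57% and 53% of all regions did. In the bisulfite replicates it was 20 of 30 (66.7%, 48.8% to 80.8%) and 19 of 31 (61.3%, 43.8% to 76.3%), where 36.7% and 50.5% of all regions did. In the hmC-Seal replicates it was 17 of 86 (19.8%, 12.7% to 29.4%) and 17 of 176 (9.66%, 6.12% to 14.9%), where 29.7% and 9.39% of all regions did. Uniform placement of the near-start regions would give at most 0.101% in any library.

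Averaged over both directions, near-start regions overlapped the other replicate more often than other regions by 13.97 percentage points in conventional and 20.6 in bisulfite libraries, and less often, by −4.97, in hmC-Seal libraries. The mean over the 3 preparations was 9.88 percentage points ± 13.3 (SD, n = 3; two-sided exact permutation test over signs, p = 0.5, where 0.25 is the smallest possible). With a window of 500 bp the mean was −0.441. Joining regions at any distance from a start as well adds other libraries at Tmem220, Dpy19l2 and Phf11d. With these joined, 37 of the 259 stretches with a near-start region (14.3%) held a region of 2 or more libraries, where 14.8% of all 15657 stretches did. All 6 libraries were held by 3 of 259 (1.2%), where 0.358% of all stretches did so.

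The depth behind the regions differed between libraries, and within a preparation most between the hmC-Seal replicates. By an estimate from fold enrichment and −log10 p, near-start regions rested on a median of 18 and 21 fragments in conventional replicates 1 and 2, 18 and 17 in bisulfite, 17 in replicate 1 of hmC-Seal and 4 in its replicate 2. The estimated mean coverage was 0.348 and 0.303, 0.824 and 0.887, and 0.717 and 0.156, in the same order. In hmC-Seal replicate 2, 106 of the 176 near-start regions rested on at most 4 fragments, and 1 of these 106 (0.943%, 0.167% to 5.15%) overlapped replicate 1, where 3.38% of the other regions of that depth did. Of its regions with 5 to 9 fragments, 12 of 49 (24.5%, 14.6% to 38.1%) overlapped replicate 1, where 12.01% of the other regions did, and of those with 10 or more it was 4 of 21 (19.05%, 7.67% to 40%), where 21.7% of the others did. The overlap was thus lowest at 4 fragments or fewer, and the few regions of 10 or more limit what can be read above that. In hmC-Seal replicate 1 no near-start region rested on fewer than 8 fragments, and 0 of its 6 regions with 5 to 9 and 17 of its 80 regions with 10 or more (21.2%, 13.7% to 31.4%) overlapped replicate 2, where 31.1% of the other regions of that depth did. The part of depth in the difference between preparations was not tested.

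**Figure D5:**
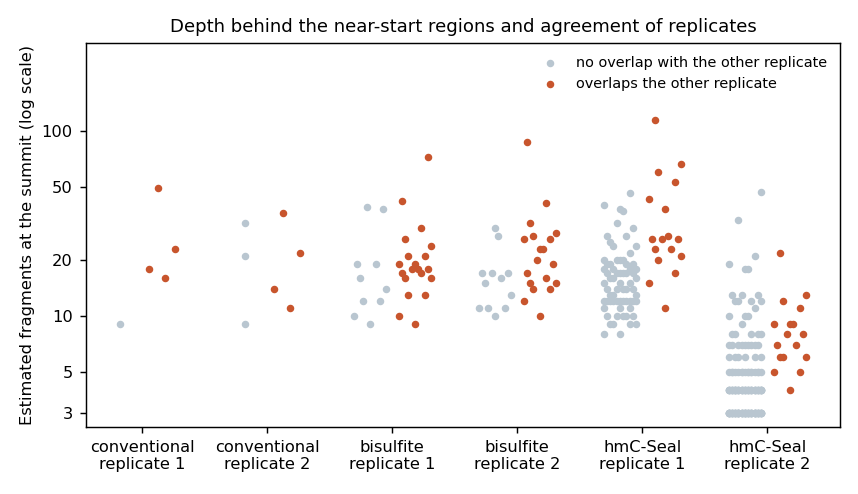
Estimated fragments at the summit of each near-start region (y axis, log scale) by library, for regions that overlap the other replicate of the same preparation by 1 bp or more (orange) and those that do not (grey). In hmC-Seal replicate 2, 106 of 176 regions lie at 4 fragments or fewer, and 1 of these is orange.

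The median fold enrichment of near-start regions was above that of other regions in 5 of 6 libraries, while −log10 q and fragments did not follow it in every library. The median fold enrichment near starts and elsewhere was 11.02 against 7.62 and 14.4 against 7.66 in conventional replicates 1 and 2, 7.81 against 5.98 and 6.90 against 6.28 in bisulfite replicates, and 7.44 against 7.29 and 4.32 against 4.32 in the hmC-Seal replicates. On the log2 scale the difference of medians averaged 0.33 ± 0.35 (SD, n = 6 libraries), and it was above 0 in 5 of 6 libraries and 0 in hmC-Seal replicate 2. It did not pass the two-sided exact permutation test over signs (p = 0.0625, or 0.375 after Benjamini-Hochberg adjustment). With the difference of hmC-Seal replicate 2 at 0, this p-value was the lowest within reach, so the test could not pass and decides nothing. All 6 differences were above 0, for an unadjusted exact permutation p of 0.031, with regions of −log10 q of at least 3, with regions of at least 10 fragments and with lists of equal length. With the first of these the difference in hmC-Seal replicate 1 was 8.32e-05, and the lists of equal length held 1 near-start region in hmC-Seal replicate 2 and 3 in bisulfite replicate 1. The median −log10 q was higher near starts in both conventional libraries and bisulfite replicate 1, equal in bisulfite replicate 2 and hmC-Seal replicate 2, and lower in hmC-Seal replicate 1 (7.71 against 7.98). The median number of fragments was higher near starts in both conventional libraries (18 against 14 and 21 against 12), equal in hmC-Seal replicate 1, and lower by 1 in the other libraries.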

How the data were processed

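CUT&RUN of OCT4 was analysed in 6 libraries, grouped by their labels into 3 preparations (conventional, bisulfite, hmC-Seal) with 2 replicates. Per the submitters' processing notes, the authors used bcl2fastq 2.20, fastp 0.19.4, Bismark 0.22.3, Bowtie2 2.4.1, SAMtools 1.10, bedtools 2.29.2 and deepTools 3.1.3. The authors called peaks in each library with MACS 2 against IgG, on positions of GRCm38, each replicate by itself, and did not calibrate these lists by spike-in. The authors' fold enrichment is a ratio of the pileup to the background of IgG around it; which IgG library was used for hmC-Seal is not given in the sources used here. Their deposited −log10 values of p and q come from the same caller. The deposited score is −log10 q times 10, cut to a whole number, and the deposited summit offset counts from the region's start. The members and lists were chosen with earlier results of these data known.

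Entries sharing both ends were taken as 1 region, with the summit of highest −log10 q. Gene spans came from the RefSeq table of GRCm38.p6, without exons, the strand of 17274 genes from the RefSeq promoter table and that of 4043 from GENCODE M1 by symbol or identifier. For 314 of 21631 genes no strand was found, and 15 regions lay within 1000 bp of either end of such a gene. Shares under uniform placement were calculated from the positions within the window on each region's own chromosome and not drawn at random. Chromosome ends were taken as the last position in the gene table or the lists, and unmappable sequence was kept, so these shares are approximate. Fragments behind a summit were estimated from the Poisson formula of MACS 2, which gave a number for 96.6% to 99.8% of summits. The pileup had to match within 0.02, or within a small share of it where the pileup was high. Where several numbers fitted, those at the library's own background were preferred and the smallest was used, so the estimates are lower limits there. Promoter sequences were those of RefSeq, GRCm38.p6; 5 regions on chromosome 18 are counted without a sequence. The replicate numbers of conventional and bisulfite libraries name the same pools, those of hmC-Seal libraries only a number, and the main tests did not pair them.

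Genes named in the text were those near-start in 4 or more libraries; then those in both replicates of a preparation, by number of libraries and best rank of −log10 q, up to 25; the strongest region of each library; up to 4 marked genes of each list; and the 3 regions on either side of the limit. Liph, Phc1, Ace3, Slc16a3, H1f10, Dpy19l2, Gadd45g, Mbd5 and the unmarked list members were named after their values were seen. Alternatives were other windows, any base of a region, every summit, stricter limits on −log10 q and fragments, no dense 100 kb bins, lists of equal length, a wider overlap, pairing, and leaving out libraries or preparations. Added after the data were seen were all RefSeq starts, every alternative for the number of genes in any library, and every alternative for the octamer's share (its 7 letters, the depth filter and leaving out each library). Computation used scipy 1.17.1, numpy 2.4.6, pandas 2.3.3 and matplotlib 3.10.9 under Python 3.11.15, and was tested on simulated lists.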

Additional observations from a re-analysis of the deposited data

How the results depend on the processing

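The difference from the uniform share kept its direction under all 15 alternatives (0.270 to 1.57 percentage points), as did the difference of bisulfite from conventional libraries under 14 (−3.99 to −0.623) and of hmC-Seal from conventional libraries under 14 (−3.02 to −0.081). The difference of hmC-Seal from bisulfite libraries ran from 0, in lists of equal length, to 1.10, and none of these results passed its test under any alternative. The replicate agreement of near-start over other regions reversed to −0.441 percentage points with a window of 500 bp and lay between 4.50 and 25.1 under the other 12 alternatives. The log2 fold enrichment reached an unadjusted exact permutation p of 0.031 with −log10 q of at least 3 (0.35), with at least 10 fragments (0.34) and in lists of equal length (0.74), and it lay between 0.17 and 0.40 otherwise. The first of these rests on a difference of 8.32e-05 in hmC-Seal replicate 1, and the last on 1 near-start region in hmC-Seal replicate 2.

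Genes shared by replicates numbered 1, 11 and 7 (conventional, bisulfite, hmC-Seal) with a window of 500 bp and 9, 43 and 50 with 2000 bp, and genes in any library 149 and 545, as the width of the window implies. With at least 10 fragments, 5 hmC-Seal genes were shared and 115 genes were marked in any library. With −log10 q of at least 3, 141 genes were marked. Lists of equal length, with 186 regions each, left 2 shared bisulfite genes, 1 shared hmC-Seal gene and 14 genes in any library. Leaving out 1 library gave 106 to 270 genes in any library, with 106 without hmC-Seal replicate 2 and at least 211 without any other. The share of windows with an octamer rose to 41.2% with at least 10 fragments and lay between 21.2% and 38.9% without 1 library. The cause of these shifts was not tested. Of the 11 genes in 4 or more libraries, all 11 remained so under 6 of the alternatives for regions, 7 with at least 10 fragments, 6 with 500 bp and 2 in lists of equal length.

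With the replicate number as a block, the pairing left the mean differences of −1.74, −1.07 and 0.669 percentage points unchanged (exact permutation p of 0.5, 0.5 and 1, where 0.5 is the smallest for 2 pairs). The paired differences in replicates 1 and 2 were −1.57 and −1.91 for bisulfite minus conventional, −0.230 and −1.91 for hmC-Seal minus conventional, and 1.34 and −0.001 for hmC-Seal minus bisulfite libraries. Counts of shared genes have no value without a replicate.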

Other observations

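Several near-start regions called in hmC-Seal replicate 1 alone had an octamer in the promoter window that holds their summit. Beside Gadd45a and Zfp42, they belong to Lgr4, a receptor of R-spondins (fold enrichment 7.28, octamer centre at 19 bp from the summit), Nrarp, a feedback inhibitor of Notch signalling (7.80, at −14), Oas1c of the oligoadenylate synthetase family (7.64, at −6) and Pim2, a serine/threonine kinase gene on the X chromosome (6.78, at 28). The separate region of Prrc2a had one at 8 (10.6). The octamer lay farther away at Zfp120 (7.49, at 62) and D130040H23Rik (4.55, at −67). In hmC-Seal replicate 2 alone, the divergent histone pair H2ac12 and H2bc12 had an octamer at −33 on 4 fragments, and Gm14139 had one at −25 on 3. These genes were named after their values were seen.

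The near-start regions without a match in any other library include some on many fragments. In hmC-Seal replicate 1, the region of Fam169a had a fold enrichment of 21.1 on 40 fragments and that of Esrra, an orphan nuclear receptor, 16.2 on 32. In hmC-Seal replicate 2, the region of Edc3, a factor of mRNA decapping, had 6.64 on 47 fragments. In bisulfite replicate 1, Psg23 and Agpat4 had 7.78 on 39 and 7.59 on 38 fragments. By contrast, Crlf2 had 19.9 on 22 fragments in hmC-Seal replicate 2, and Etv5 had 14.8 on 30 in bisulfite replicate 1. Fold enrichment is relative to the local background, so that background was higher around Edc3, Psg23 and Agpat4. Their many fragments are thus not a measure of strength over IgG. These genes too were named after their values were seen.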
